A study of Mus musculus with 8 samples.

Results

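Rab GTPases are small switch proteins that sit on the membranes of vesicles and organelles. Exchange factors load them with GTP, GTPase-activating proteins switch them off, and in the GTP-bound state they recruit tethers, motors and other effectors that decide where a vesicle goes. In monocytes and other phagocytes they carry cargo from the plasma membrane to early endosomes, back to the surface, or on to lysosomes and phagosomes, and they move secretory vesicles outwards. The members were the genes whose name in the scanner files is Rab followed by a number and at most a short suffix, so Rab-binding proteins are not members. The rule took 103 probes of 55 genes, out of 41174 probes and 28786 gene names on the array, and used no measured value to choose a gene. Of the 55 genes, 43 had a probe that passed the filter on dim signal and were tested, out of 18266 genes tested in all. The array uses older names for some: Rab1, Rab2 and Rab6 are now Rab1a, Rab2a and Rab6a, and Rab7l1 is now Rab29.

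The samples were Ly-6C-high monocytes, a circulating monocyte subset, sorted from blood and from spleen of female C57BL/6 mice aged 8 to 12 weeks that were healthy, untreated and fed chow. There were 4 blood and 4 spleen samples of 1000 sorted cells each, from a group of 4 mice, with no genetic change or drug in either group. The sort took CD11b-high cells that were low for antigens of lymphocytes, NK cells, granulocytes, macrophages and dendritic cells. The comparison asks whether a monocyte of the same surface type differs in its transcripts between blood and spleen. The study design says that both tissues came from each mouse. No label says that a replicate number stands for 1 mouse, so the groups were compared unpaired. The main p-values and intervals thus take no account of shared mice. The p-values rest on the spread among these samples, part of which may be technical.

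All levels are the authors' log2 values, and every difference is spleen minus blood on that scale, where 1 unit is 2-fold. A level under 6.8 is here called below background. The test was limma's moderated linear model with Benjamini-Hochberg adjustment over all 18266 genes, and intervals are its 95% intervals. For 3 blood samples, numbers 1 to 3, scanner file and table column disagreed, with rank correlations of 0.842, 0.852 and 0.872. Each of these 3 files ranked probes more like the column of spleen 4, at 0.865, 0.874 and 0.898, than like its own. The other 5 files ranked probes as their columns did. The sources used here do not say which version of these 3 samples was meant, and this bears on every blood mean below. Values from the scanner files, and from the 5 matching columns alone, are therefore given below for the family and for some of the genes. Where none is given, the value rests on the table alone.

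The label of the cells was checked against marker lists. Of 18 genes listed for Ly-6C-high monocytes, 13 were tested, and their median level was 12.37 to 12.60 in the blood samples and 12.11 to 12.53 in the spleen samples. Other lists had ranges that did not overlap between the tissues: the median of 16 tested neutrophil granule genes, of 23 listed, was 7.25 to 8.36 in blood and 9.45 to 10.79 in spleen. For 18 of 21 platelet and megakaryocyte genes it was 8.68 to 9.84 in blood and 8.17 to 8.38 in spleen. For 10 of 13 red pulp macrophage genes it was 7.82 to 8.47 in blood and 8.69 to 9.95 in spleen. The ranges of the medians also stood apart for 8 of 12 dendritic cell genes, at 8.11 to 8.55 in blood and 8.61 to 8.83 in spleen. For 10 of 15 T cell genes they were 7.33 to 7.43 and 7.53 to 8.14. Those of the B cell, NK cell and erythroid lists overlapped. A median can stand apart where single genes do not. The tissues did not overlap for 0 of the 10 T cell genes and 1 of the 8 dendritic cell genes, Itgax, against 3.3% of all genes. In each of these 2 lists 3 genes had a lower mean in spleen. Of the 18 platelet genes, 2 did not overlap and 4 had a higher mean in spleen. Of the 10 red pulp macrophage genes, 3 did not overlap and 3 had a lower mean in spleen. Of the 16 neutrophil genes, 9 did not overlap and 1 had a lower mean in spleen. In bulk samples, fewer cells of a type and less RNA per cell cannot be told apart. The part of these other cell types in the values of the Rab genes was not tested.

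Because the Rab proteins share the same GTP-binding fold, the first question for such a family is whether a probe reads 1 member or several. The 60-base probes of different members were compared in all 5191 pairs at their best ungapped alignment. No probe was compared with the full transcripts of other members, so the comparison cannot say whether a probe reads 1 member. It shows how alike the probes themselves are. The median pair had 21 identical bases, and 2 pairs had 32 or more. The most alike pair, Rab11b and Rab25, had 36 identical bases of 60. They are shown because these genes are close relatives of the recycling endosome, with the capitals marking bases identical in the partner:
Rab11b: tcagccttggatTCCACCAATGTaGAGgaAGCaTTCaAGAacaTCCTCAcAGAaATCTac
Rab25: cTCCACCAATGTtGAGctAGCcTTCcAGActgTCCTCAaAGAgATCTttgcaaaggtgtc

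The next pair, Rab5b and Rab17, had 35 identical bases, again in capitals, and their longest unbroken shared run was 5 bases:
Rab5b: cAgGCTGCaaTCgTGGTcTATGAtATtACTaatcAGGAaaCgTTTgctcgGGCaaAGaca
Rab17: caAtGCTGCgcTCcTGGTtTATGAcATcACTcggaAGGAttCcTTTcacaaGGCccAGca

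Rab8a and Rab10, which both carry vesicles from the Golgi and endosomes to the surface, had 30 identical bases and a shared run of 8. The Rab10 probe printed here is not its brightest, which stands for Rab10 in the differences below. These probes are shown because they lie on the same conserved stretch of the guanine-binding pocket:
Rab8a: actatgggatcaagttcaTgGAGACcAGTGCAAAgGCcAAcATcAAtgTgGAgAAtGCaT
Rab10: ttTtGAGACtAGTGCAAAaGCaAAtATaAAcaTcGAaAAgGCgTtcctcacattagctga

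The longest run shared by any of the printed probes was 14 bases, between Rab9 and Rab11b, and is in capitals here:
Rab9: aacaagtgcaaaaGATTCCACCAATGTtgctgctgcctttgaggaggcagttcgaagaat

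The capitals fall in short blocks, with differences spread between them. On the mouse build mm7, as the scanner files give it, the Rab11b probe spans chr17:31822646-31823401 and the Rab25 probe chr3:88656153-88656542, both on the minus strand. These spans exceed 60 bases, so the genomic interval of each probe is broken. The Rab9 probe lies unbroken at chrX:161232161-161232220. No exon or untranslated region annotation of that build was used. The levels of the pair need not run together: Rab25 was below background on 7 of 8 arrays, while Rab11b was far above it on all.

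No Rab gene passed the test between blood and spleen. At an adjusted p under 0.05, 0 of 43 were called, as were 0% of all 18266 genes, and the smallest adjusted p among the 43 was 0.757. At an unadjusted p under 0.05 the count was 1 of 43, Rab4a, against 5.43% of all genes tested, or 2.34% lower in spleen and 3.09% higher. The tissues did not overlap for 1 of 43, Rab8b, against 3.3% of all genes, or 1.41% with spleen the lower. Rab8b had 3 values per tissue, with which ranges stand apart more easily than with 4. Of the 43, 16 had a higher mean in spleen and 27 a lower one, against 48.8% of all genes with a higher mean in spleen, and the median difference was -0.13 beside -0.01 for all genes. These shares describe the list and carry no test.

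The width of the intervals says how large a change could have gone unseen. For 26 of the 43 genes the 95% interval lay within 2-fold in both directions, against 55.1% of all genes, and the median interval was 1.32 wide. The median spread between replicates, pooled over the 2 tissues, was an SD of 0.40, beside 0.45 for all genes. Rab10 and Rab31 were the steadiest, with SDs of 0.17 and 0.18, and Rab6b the most variable, with 1.59. The cumulative plot of differences sets the 43 genes beside all genes.

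**Figure D1:**
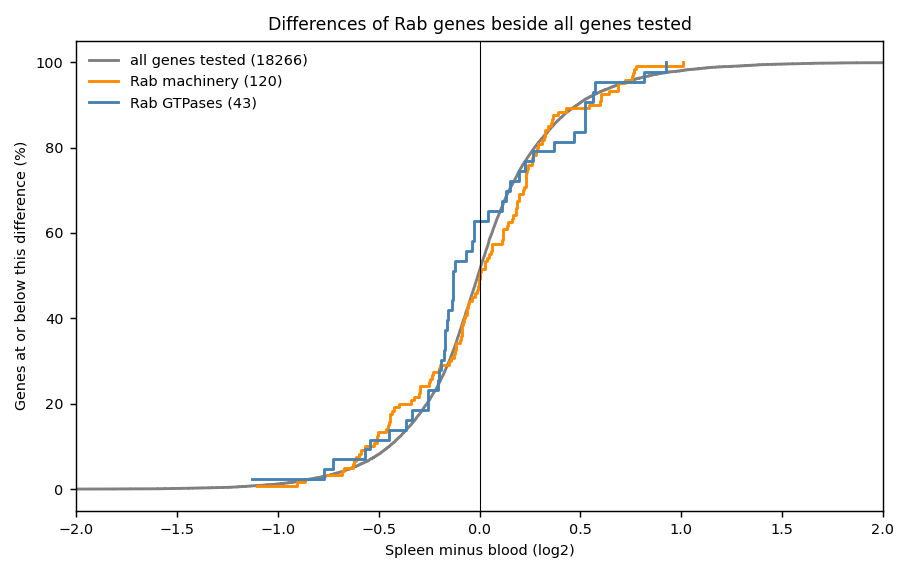
Cumulative share of genes (y axis, percent) at or below each spleen minus blood difference (x axis, log2) for the 43 tested Rab GTPases, 120 genes of the Rab machinery and all 18266 genes tested. The Rab line runs slightly left of the others around its median of -0.13 and ends at -1.13 and 0.93.

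The direction of the family as a whole was not stable between the 2 deposits. With all 8 scanner files, scaled to each array's 75th percentile, 29 of 43 Rab genes had a higher mean in spleen, against 46.6% of all genes, and the median difference was 0.28. With the 5 matching scanner files the count was 19, against 45.7% of all genes, and with the 5 matching columns of the table, 1 blood against 4 spleen, it was 23 with a median of 0.03. Under all 8 scanner files 3 Rab genes had an unadjusted p under 0.05, namely Rab31, Rab36 and Rab3d, against 8.42% of all genes, and none an adjusted p under 0.05. The plot of table against scanner differences shows which genes changed sign.

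**Figure D2:**
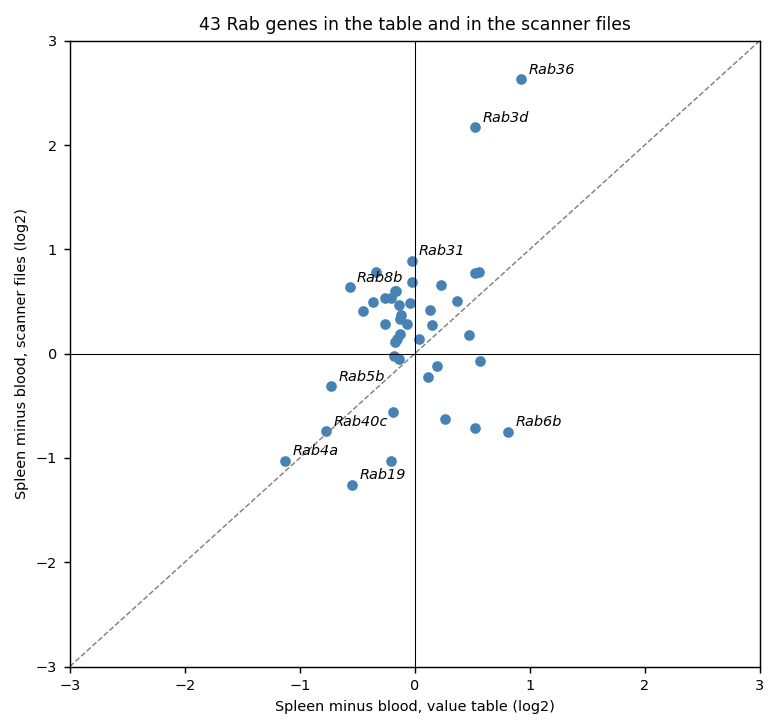
Spleen minus blood difference of the 43 tested Rab genes in the value table (x axis, log2) and in all 8 scanner files (y axis, log2), with the dashed line marking equal values. Rab4a lies near the line at -1.13 and -1.03, while Rab8b, Rab31 and Rab6b lie in quadrants where the signs differ.

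**Figure D3:**
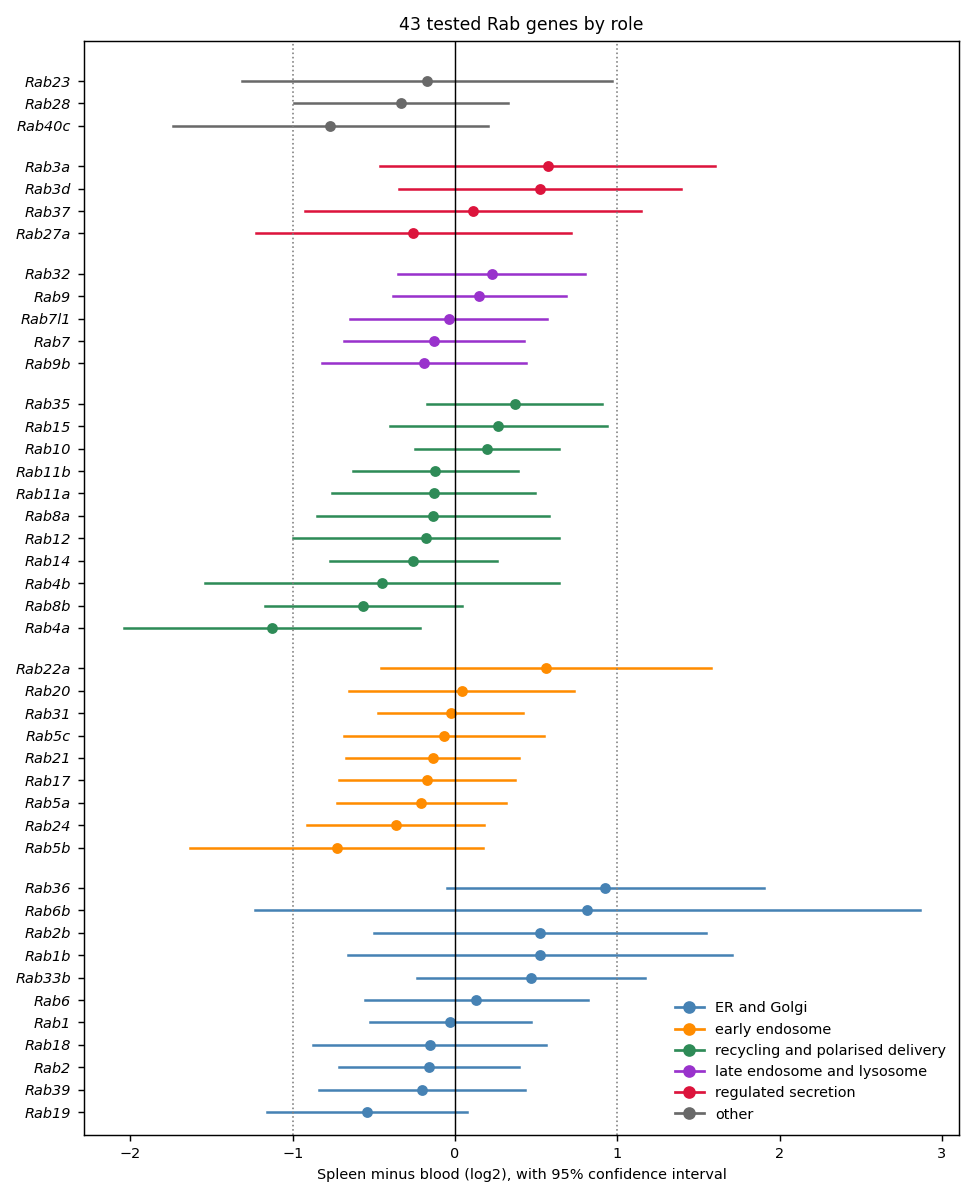
Spleen minus blood difference (x axis, log2; point) with its 95% confidence interval (line) for each of the 43 tested Rab genes, grouped by role; dotted lines mark 2-fold. The interval of Rab4a alone leaves out 0, and all 5 late endosomal members lie within 2-fold.

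The early endosome Rabs were all tested, 9 of 9, with 2 higher and 7 lower means in spleen, a median difference of -0.14, and 7 intervals within 2-fold. Rab5a, Rab5b and Rab5c are the master switches of early endosome fusion. Rab5b measured 9.73, 10.93, 10.99 and 10.40 in blood 1 to 4, and 9.79, 9.44, 10.76 and 9.15 in spleen 1 to 4. Blood 1 sat among the low spleen values and spleen 3 among the high blood values, so the tissues overlapped. The difference was -0.73 ± 0.40 (SE, n = 4 and 4), with an unadjusted p of 0.102 and an adjusted p of 0.975 in limma; it was -0.31 with all 8 scanner files.

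Rab5a measured 10.09, 10.00, 10.13 and 10.16 in blood and 10.23, 9.80, 9.40 and 10.14 in spleen. Its blood values lay close together, and spleen 3 was the lowest of the 8. Its difference was -0.21, with an interval from -0.73 to 0.31. Rab5c measured 12.02, 12.49, 12.57 and 11.85 in blood and 12.67, 11.96, 11.75 and 12.28 in spleen, with the highest and the lowest value both in spleen. Its difference was -0.07, with an interval from -0.68 to 0.55. Both genes had positive differences with all 8 scanner files, 0.53 for Rab5a and 0.28 for Rab5c.

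Rab22a, which works on early endosomes and in recycling, measured 9.84, 9.86, 9.78 and 10.12 in blood and 11.98, 9.98, 10.23 and 9.66 in spleen. Spleen 1 stood apart, and the other spleen values lay around the blood values. Its difference of 0.56 ± 0.45 (SE) became 0.06 without spleen 1. The 2 other probes of Rab22a read 8.96 and 9.65 in spleen 1, within their own blood ranges, and gave differences of -0.07 and 0.12.

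Rab20, a Rab of phagosomes and endosomes in macrophages, measured 7.16, 6.93, 7.48 and 7.14 in blood and 8.09, 6.78, 7.14 and 6.86 in spleen. Its highest value was again spleen 1; the difference was 0.04 with it and -0.25 without it. Rab24, linked to autophagy, measured 11.14, 11.33, 11.29 and 11.27 in blood and 11.29, 11.21, 10.60 and 10.47 in spleen. Spleen 3 and spleen 4 were low, and spleen 1 and spleen 2 were at the blood level. Its difference was -0.36 in the table, with an interval from -0.91 to 0.18, and 0.50 with all 8 scanner files. The others, Rab17, Rab21 and Rab31, had differences of -0.17, -0.14 and -0.03, each within 2-fold. With all 8 scanner files these differences were 0.11, -0.05 and 0.89.

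Of 13 Rabs of recycling and polarised delivery 11 were tested, with 3 higher and 8 lower means in spleen, a median difference of -0.13, and 8 intervals within 2-fold. Rab4a directs rapid return of receptors from early endosomes to the surface. Its probe, at chr8:122422142-122422204 on mm7, measured 9.98, 9.76, 8.74 and 10.12 in blood and 8.44, 7.60, 9.17 and 8.86 in spleen. The blood values were the higher ones except for blood 3, which lay below spleen 3 and spleen 4. Blood averaged 9.65 ± 0.63 (SD, n = 4), and spleen averaged 8.52 ± 0.68 (SD, n = 4).

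The difference for Rab4a was -1.13 ± 0.41 (SE), a 2.19-fold lower level in spleen, with an interval from -2.04 to -0.21. Its unadjusted p was 0.0208 and its adjusted p 0.757 in limma, so it was not called. The scanner files of all 8 samples gave -1.03, and the 5 matching columns gave -1.60. Leaving out each sample in turn gave -1.43 to -0.82. The block, trend, filter and probe-mean settings reused the same 8 values of its 1 probe, so they could not turn its sign. Spleen 4 minus blood 4, whose arrays were on 1 slide, was -1.26. Blood 4, at 10.12, was the highest blood value, and both -1.60 and -1.26 rest on it as the sole blood sample. Of the platelet list, 14 of 18 tested genes had a lower mean in spleen too. Its median was between 8.17 and 8.38 in spleen and between 8.68 and 9.84 in blood. The part of the platelet list in the Rab4a value was not tested. Rab4a had 1 probe, so no second probe bears on it.

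Rab8b, which moves vesicles to the plasma membrane, had 3 values per tissue, since blood 3 and spleen 2 were empty. It measured 13.25, 13.52 and 13.31 in blood and 12.98, 12.92 and 12.48 in spleen. The lowest blood value lay above the highest spleen value. The difference was -0.57 ± 0.26 (SE), with an interval from -1.17 to 0.04, an unadjusted p of 0.0636 and an adjusted p of 0.941 in limma. Its 2 other probes gave -0.04 and -0.08 with all 8 samples, and all 8 scanner files gave 0.63 for the brightest probe.

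Rab35, a regulator of recycling and of actin at the membrane, measured 11.20, 10.77, 11.22 and 10.67 in blood and 11.51, 10.89, 11.40 and 11.53 in spleen. All but spleen 2 lay above the blood values; the difference was 0.37, with an interval from -0.17 to 0.90. Rab11a, the main Rab of the slow recycling endosome, measured 11.21, 10.77, 10.78 and 10.68 in blood and 10.86, 10.24, 11.36 and 10.45 in spleen. The spleen samples straddled those of blood, and the difference was -0.13, with an interval from -0.76 to 0.49.

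Rab14, which acts between endosomes and the Golgi and on phagosomes, measured 11.42, 11.04, 10.70 and 11.24 in blood and 10.79, 10.69, 10.72 and 11.18 in spleen. Its difference was -0.26, with an interval from -0.77 to 0.26. All 3 of its probes gave a lower mean in spleen, from -0.58 to -0.04. The probe at -0.58 was the dimmest of the 3 and had no value in blood 2. With all 8 scanner files the brightest probe gave 0.53. The other tested genes of this role, Rab4b, Rab8a, Rab10, Rab11b, Rab12 and Rab15, had differences between -0.45 and 0.27.

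The 11 of 15 tested Rabs of the endoplasmic reticulum and Golgi had 6 higher and 5 lower means in spleen and a median difference of 0.13, with 5 intervals within 2-fold. Rab36, a Golgi Rab that binds a lysosome-positioning effector shared with Rab7, had the highest difference of the 43. It measured 6.73, 7.82, 8.27 and 7.77 in blood and 9.49, 8.01, 8.90 and 7.89 in spleen, with blood 1 below background. Spleen 1 and spleen 3 exceeded every blood value, while spleen 2 and spleen 4 lay within the blood range. The difference was 0.93 ± 0.43 (SE), with an interval from -0.05 to 1.90, an unadjusted p of 0.0605 and an adjusted p of 0.941 in limma. It was 2.63 with all 8 scanner files, 0.80 with the 5 matching columns, and 0.62 without spleen 1.

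Rab19 measured 9.93, 9.61, 9.62 and 9.0 in blood and 8.76, 8.64, 9.15 and 9.44 in spleen. Blood 4 lay among the spleen values; the difference was -0.54 ± 0.27 (SE), and it was -1.26 with all 8 scanner files. With the 5 matching columns, which keep blood 4 as the sole blood sample, it came to less than 0.01 in size. Rab33b, a Golgi Rab with a part in autophagy, measured 9.0, 7.68, 8.71 and 8.16 in blood and 9.19, 8.60, 9.0 and 8.64 in spleen, a difference of 0.47 with an interval from -0.23 to 1.17.

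The transport Rabs between the endoplasmic reticulum and Golgi included both steady and variable genes. Rab1, Rab2, Rab6 and Rab18 had differences of -0.03, -0.16, 0.13 and -0.16, each within 2-fold. With all 8 scanner files these differences were 0.69, 0.60, 0.42 and 0.14. Rab1b and Rab2b both had differences of 0.52 to 0.53, with intervals reaching beyond 2-fold. For Rab6b the values were 6.41, 7.12, 6.28 and 9.77 in blood and 6.35, 7.94, 10.12 and 8.43 in spleen. In blood 1 sample and in spleen 3 lay well above background and the rest near or below it, so its difference of 0.81 had an interval from -1.23 to 2.86.

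Of the 6 Rabs of the late endosome and lysosome 5 were tested. Their differences ran from -0.19 to 0.23, and all 5 intervals lay within 2-fold, against 55.1% of all genes. One of them, Rab9b, was near background and below it on 1 blood and 1 spleen array. With all 8 scanner files, 4 of the 43 Rab intervals lay within 2-fold. Rab7, which drives late endosomes and phagosomes to fuse with lysosomes, measured 13.42, 13.23, 12.77 and 12.81 in blood and 13.07, 13.24, 12.53 and 12.87 in spleen. The tissues covered nearly the same range, and the difference was -0.13, with an interval from -0.68 to 0.42. Rab32, a Rab of lysosome-related organelles and mitochondria, measured 10.76, 11.31, 10.33 and 10.89 in blood and 11.39, 11.01, 10.76 and 11.03 in spleen. Its difference was 0.23, with an interval from -0.35 to 0.80. Its close relative Rab38 measured 6.31, 6.50, 6.57 and 6.33 in blood and 6.45, 7.26, 6.64 and 6.36 in spleen. All but spleen 2 were below background, and it was not tested.

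Of 8 Rabs of regulated secretion 4 were tested, with 3 higher means and 1 lower mean in spleen and a median difference of 0.32. None of the 4 intervals lay within 2-fold, and the median replicate SD of 0.73 was above that of the late endosomal genes, 0.32. Rab27a docks lytic and azurophilic granules in leukocytes. It measured 8.31, 9.08, 7.09 and 8.02 in blood and 7.59, 8.60, 7.30 and 7.98 in spleen, and the difference was -0.26, with an interval from -1.23 to 0.71. Its 2 probes disagreed in sign, with 0.19 for the other.

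Rab3d, found on secretory granules, measured 9.19, 9.29, 9.78 and 10.08 in blood and 11.23, 9.92, 9.77 and 9.52 in spleen. Spleen 1 stood above all other samples, and the difference of 0.52 ± 0.39 (SE) became 0.15 without it. Rab3a, the synaptic vesicle Rab, measured 9.55, 11.11, 9.85 and 11.19 in blood and 10.39, 11.34, 10.52 and 11.75 in spleen. In both tissues samples 2 and 4 were high and samples 1 and 3 low, so the ranges overlapped widely. Each spleen sample lay above the blood sample of the same number. That number was also used as a fixed block, though no label ties it to a mouse. In that limma fit Rab3a was among 3 of 43 Rab genes with an unadjusted p under 0.05. The count over all 18266 genes was 1190. In the unpaired fit the Rab3a difference was 0.57 ± 0.46 (SE), with an unadjusted p of 0.244 and an adjusted p of 1 in limma. Its sign turned in the scanner files, to -0.07, and to -0.16 in the matching files alone. The matching columns alone gave -0.19.

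Rab40c, a Rab that serves in ubiquitin ligases, measured 9.21, 8.96, 9.67 and 8.50 in blood and 8.96, 8.79, 8.46 and 7.05 in spleen. Spleen 4 was the lowest, and spleen 1 and spleen 2 lay within the blood range. The difference was -0.77 ± 0.43 (SE), with an interval from -1.74 to 0.20. Its other probe gave 0.05, the widest disagreement among probes of 1 gene. Rab28 and Rab23, Rabs of cilia, had differences of -0.33 and -0.17.

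**Figure D4:**
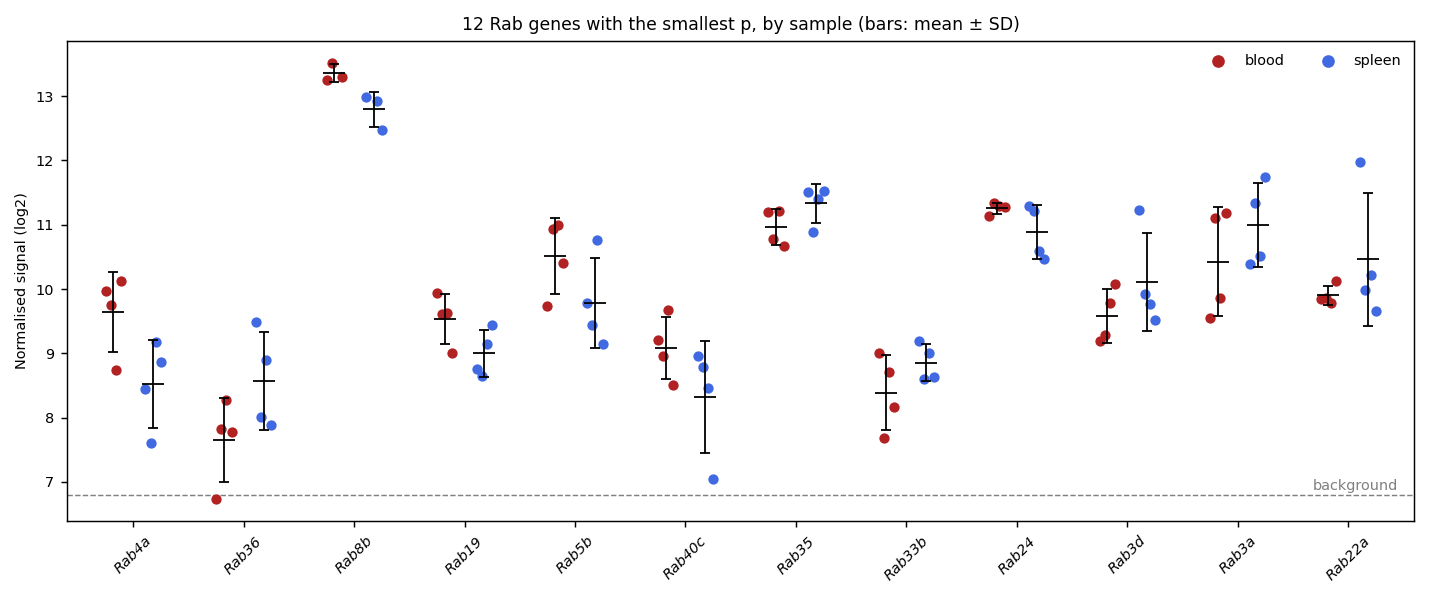
Normalised signal (y axis, log2) of the 12 Rab genes with the smallest unadjusted p in each blood sample (red) and spleen sample (blue), with the mean and SD per tissue as black bars and the background level as a dashed line. Rab8b, with 3 values per tissue, is the gene whose tissues do not overlap, and single high spleen points lift the means of Rab3d and Rab22a.

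Further probes of 1 gene gave a second reading under the same gene name. Whether they read the same transcript was not tested. Of the 55 genes, 35 had 2 or more probes, and for 19 genes at least 2 passed the filter. All probes had the same sign for 12 of these 19 and differed in sign for 7. The spread between the probes' differences had a median of 0.38 and ran from 0.01 for Rab6 to 0.82 for Rab40c. The median size of the 43 differences themselves was 0.21. Rab10 had 4 probes that passed, with differences of 0.20, 0.31, -0.36 and 0.05. For Rab11b the brightest probe gave -0.12 and the other 0.66.

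**Figure D5:**
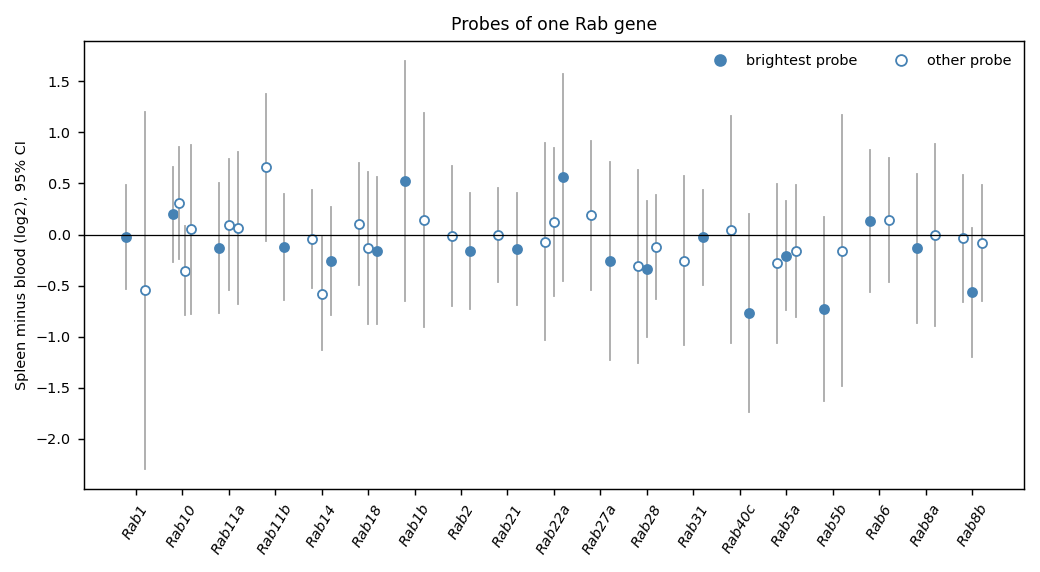
Spleen minus blood difference (y axis, log2) with its 95% confidence interval for every probe that passed the filter, for the 19 Rab genes with at least 2 such probes; filled points are the brightest probe of a gene. The points of Rab40c, Rab11b and Rab10 fall on both sides of 0.

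The 12 genes that were not tested were all dim, with at most 3 of 8 arrays at or above background. They were Rab3b, Rab3c, Rab13, Rab25, Rab26, Rab27b, Rab30, Rab33a, Rab34, Rab38, Rab39b and Rab40b. Rab3b, Rab3c, Rab13, Rab34, Rab39b and Rab30 were below background on every array. Rab27b, the relative of Rab27a known from platelets and mast cells, reached 8.36 and 7.45 in blood 2 and blood 3 and 7.02 in spleen 2. Rab33a reached 9.31 in spleen 1 and was below background on the other 7 arrays.

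The RefSeq promoter table (GRCm38.p6; 250 bases before to 50 after the first listed start) held 38 of the 43 tested and 8 of the 12 untested genes. The tested genes had a median of 24.5 CpG sites in these 300 bases, the untested genes 10.5, and all 27025 promoters had a median of 7. Median GC content was 63.5% for the tested genes, 57.3% for the untested genes and 52.7% for all promoters. All promoters include those of genes not tested here, so they are not a like set. The letters CACGTG, which read the same on both strands, were in 5 of the 38, or 13.2%, in none of the 8, and in 7.24% of all promoters. The 5 were Rab5a, Rab20, Rab21, Rab23 and Rab24. These are descriptions of sequence, and no binding was measured here.

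The genes that act on Rab proteins were listed by role, 140 in all, of which 120 were tested. None had an adjusted p under 0.05. At an unadjusted p under 0.05 the count was 9 of 120, with 5 higher and 4 lower in spleen, against 5.43% of all genes tested. Of the 120, the tissues did not overlap for 3 genes higher and 1 gene lower in spleen, against 3.3% of all genes. The median difference was 0.00, with 60 genes on each side. By role, 18 of 32 GTPase-activating proteins, 16 of 33 exchange factors, 22 of 48 effectors and 4 of 7 genes for escort, GDP dissociation inhibition and prenylation had a higher mean in spleen.

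Chm, the escort protein that presents new Rab proteins for prenylation, measured 7.95, 7.65, 7.53 and 7.83 in blood and 8.50, 8.63, 8.34 and 8.04 in spleen. The tissues did not overlap. The difference was 0.64 ± 0.21 (SE), with an unadjusted p of 0.014 and an adjusted p of 0.729 in limma. Gdi2, which draws inactive Rabs off membranes, had 3 values per tissue, 13.78, 13.88 and 14.00 in blood and 13.85, 13.82 and 13.80 in spleen, and a difference of -0.06 with an interval from -0.60 to 0.47.

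Among the GTPase-activating proteins, the TBC-domain gene Evi5 measured 9.21, 9.99, 9.44 and 9.50 in blood and 8.99, 9.11, 8.72 and 8.59 in spleen. The tissues did not overlap, and the difference was -0.68 ± 0.24 (SE). Tbc1d14, a TBC protein tied to Rab11 and autophagy, measured 10.64, 11.57, 11.56 and 11.55 in blood and 12.34, 12.31, 11.72 and 11.98 in spleen, also without overlap, a difference of 0.76 ± 0.28 (SE). Tbc1d10b, another TBC-domain gene, had a difference of 0.60. Its relative Tbc1d10c measured 9.04, 8.64 and 8.59 in blood, with blood 4 empty, and 9.19, 9.27, 9.67 and 9.64 in spleen, without overlap and with a difference of 0.69. The sign of Tbc1d10c turned with all 8 scanner files, to -1.48.

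Among the exchange factors, Rin2, which acts on Rab5, had a difference of -0.62 ± 0.26 (SE), with an unadjusted p of 0.0423 in limma.

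Among the effectors, Pik3c3, the lipid kinase of early endosomes and autophagy, had a difference of 0.77 ± 0.32 (SE). Micall2, which binds Rab8 and Rab13, had -0.87 ± 0.34 (SE), and Rab11fip1, a Rab11 effector, -0.57 ± 0.24 (SE). The adjusted p of these 3 was 0.816 to 0.869 in limma. The Rab5 effectors Rabep1 and Eea1 had differences of -0.43 and -0.08, the Rab7 effector Rilp -0.12, and the Rab27 effector Unc13d 0.06. The intervals of these 4 all held 0, and those of Rabep1, Eea1 and Rilp reached beyond 2-fold.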

How the data were processed

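Each sample was hybridised to 1 Agilent array in 1 colour, Cy3. The authors deposited spot intensity values in scanner files; the file headers name Agilent Feature Extraction 9.5.1.1. They also deposited log2 values of all 8 arrays, and the submitters' processing notes name limma without its version or settings. Further steps are not given in the sources used here. The deposited log2 columns share a median of 7.31 and differ by at most 0.017 at any percentile from 1 to 99, as quantile normalisation would leave them.

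Probes at or above 6.8 on at least 4 of 8 arrays, with at least 3 values per tissue, were kept; the brightest probe stood for a gene. Empty cells stayed missing. Spleen was compared with blood by lmFit and eBayes (limma 3.58.1, R 4.3.3, data.table version 1.17.8), with Benjamini-Hochberg adjustment at 0.05. The code was tested on simulated data. The number of arrays limits the precision.

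Values in every sample are given for the 12 tested genes with the smallest p, Rab genes whose tissues did not overlap, and Rab5a, Rab5b, Rab5c, Rab7, Rab11a, Rab14, Rab20, Rab27a, Rab32 and Rab38. For the machinery the 8 smallest p and Gdi2, Chm, Rabep1, Eea1, Rilp and Unc13d are named; a further gene of the rule is not reported here. Further genes were chosen after their values were seen. The members and lists were chosen with earlier results of these data known. Alternatives were the scanner files (75th percentile, or normexp with offset 50 and quantile), matching arrays alone, other filters, the mean over probes, replicate and slide blocks, array weights, an intensity trend, and leaving out each sample.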

Additional observations from a re-analysis of the deposited data

Results flagged for a closer look

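In groups of 4 samples, a value was marked when its gap to the nearest other sample took up more of the group's range than Dixon's 95% limit allows; of 115 groups examined, 7 were marked, and chance marks about 1 in 20. Spleen 1 was marked for Rab2b at 6.87, with the other spleen samples at 8.01 to 8.23, and for Rab33a at 9.31, with the others at 6.46 to 6.61. Spleen 2 was marked for Rab10 at 12.78, below the others at 12.97 to 12.99, for the dim Rab26 at 7.59, above the others at 6.36 to 6.52, and for the Rab7 effector Rilp at 9.53, above the others at 6.52 to 6.70. Spleen 3 was marked for Rab31 at 12.36, below the others at 12.68 to 12.71. Blood 1 was marked for Tbc1d14 at 10.64, below the other blood samples at 11.55 to 11.56. Spleen 1 was the highest or lowest spleen value for 52.5% of the 40 Rab genes with 8 values, against 54.6% of all such genes.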

How the results depend on the processing

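No Rab gene and no machinery gene had an adjusted p under 0.05 in limma under any alternative run; at an unadjusted p under 0.05 the main counts were 1 and 9. With all 8 scanner files at the 75th percentile, 29 Rab genes had a higher mean in spleen, 3 had an unadjusted p under 0.05, 4 intervals lay within 2-fold, and the medians were 0.28 for Rab genes and 0.075 for the machinery. With normexp and quantile the same values were 29, 3 (1703 of all genes), 14, 0.19 and 0.067; with the slide as a block 27 genes were higher, 2 intervals lay within 2-fold, and the medians were 0.29 and 0.095. With the 5 matching scanner files, where 1 blood array is assumed to vary like the spleen arrays, 0 Rab and 2 machinery genes (680 of all genes) had an unadjusted p under 0.05, 0 intervals lay within 2-fold and the median was -0.050. With the 5 matching columns, read in the same way, the machinery count was 4 (709 of all genes), 4 intervals lay within 2-fold and the median was 0.026. The Rab count at an unadjusted p was 2 with no filter, with the intensity trend and with array weights, where the counts over all genes were 1338, 973 and 1115; the median was -0.068 with no filter, -0.063 over the mean of probes and -0.076 with array weights. Without the filter, probes shared their sign in 21 of 34 genes, against 12 of 19. The cause of these changes was not tested, except that fewer arrays widen the intervals.

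Both tissues came from each mouse by the study design, but no label ties a replicate number to a mouse. Which samples pair is therefore not given. Same-numbered deviations correlated at 0.0903 to 0.141 and the 12 other pairs at -0.116 to 0.0344. Each sample correlated best with its own number, a hint from the data and not from a label. With the number as a fixed replicate block the Rab count at an unadjusted p was 3 (Rab3a, Rab4a and Rab40c), while all genes went from 992 to 1190; as a random block it was 2 (Rab4a and Rab8b), with 1371 genes in all. The block changed the sign of none of the 33 named genes. For a gene with a value in every sample it leaves the difference as it was, so that sign could not change. Among genes with empty cells, the fixed block moved Rab8b from -0.57 to -0.55 and Tbc1d10c from 0.69 to 0.62. It moved Rabep1 from -0.43 to -0.60.

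Leaving out each sample in turn gave 16 to 22 Rab genes higher in spleen, 1 to 3 with an unadjusted p under 0.05 (942 to 1083 of all genes), 20 to 28 intervals within 2-fold, and medians of -0.13 to 0.016. For the machinery it gave 4 to 11 genes and medians of -0.048 to 0.079. Ranges that crossed 0 were -0.24 to 0.071 for Rab5c, -0.23 to 0.0033 for Rab7, -0.34 to 0.032 for Rab11a, -0.25 to 0.19 for Rab20, -0.60 to 0.061 for Rab27a, -0.40 to 0.13 for Eea1, -0.85 to 0.23 for Rilp and -0.23 to 0.36 for Unc13d.

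Signs turned for 13 named genes with all 8 scanner files: 0.63 for Rab8b, 0.50 for Rab24, -0.068 for Rab3a, 0.53 for Rab5a, 0.28 for Rab5c, 0.33 for Rab7, 0.19 for Rab11a, 0.53 for Rab14, 0.28 for Rab27a, -1.48 for Tbc1d10c, 0.23 for Gdi2, 0.45 for Eea1 and -0.12 for Unc13d. With normexp they were 0.54, 0.44, -0.066, 0.45, 0.19, 0.14, 0.10, 0.48, 0.15, -1.48, 0.13, 0.37 and -0.15 in that order. With the slide as a block they were 0.52, 0.45, -0.33, 0.39, 0.33, 0.19, 0.28 and 0.50 for Rab8b to Rab14, and -1.42, 0.23, 0.16 and -0.11 for Tbc1d10c to Unc13d. With the 5 matching scanner files Rab3d was at -0.058, Rab3a at -0.16, Rab5c at 0.35, Rab7 at 0.091, Rab20 at -0.065 and Eea1 at 0.98. With the 5 matching columns Rab3a was at -0.19, Rab5c at 0.31, Rab7 at 0.12, Rab11a at 0.048 and Eea1 at 0.86. Gdi2 was at 0.086 with a filter on all 8 arrays and at 0.039 over the mean of probes, Rab11a was at 0.0092 over the mean of probes, and Rab20 was at -0.046 with array weights.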
